A study of Rattus norvegicus with 24 samples.

Results

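RNA levels of 37 genes that serve the heartbeat were described here in the rat left ventricle. The arrays measured RNA alone, not channel protein, current or rhythm. Potassium channel subunits had 15 genes, calcium channel subunits of the surface membrane 6, and pacemaker and cation channels 3. Calcium release, ion transport and cell to cell coupling had 13. The 37 genes were taken by name from the 22093 genes with exactly 1 annotated symbol on the array. Each gene was represented by its transcript cluster with the highest mean over the 24 hearts. All 37 were measured. The rule that picked them used no difference between groups, but the list was written with earlier results of these data known. Male RccHan Wistar rats, 7 to 8 weeks old at the start, ate chow with 400 ppm rotenone, an inhibitor of mitochondrial complex I, or the same chow at 0 ppm, for 1, 3 or 14 days. With 4 rats in each of 6 groups, RNA from the apex of the left ventricle of each rat was hybridised to its own Affymetrix Rat Transcriptome Array. Control and rotenone rats alike were killed by exsanguination under isoflurane. Rotenone-fed rats lost weight while the control rats grew, and no control group was matched for feed or weight, so the effect of rotenone and that of the weight loss cannot be told apart.

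The heartbeat rests on a cycle of currents. Inward rectifier and background potassium channels hold the resting potential, voltage-gated potassium channels end the action potential, and calcium channels of the surface membrane let in the calcium that opens the ryanodine receptor of the sarcoplasmic reticulum. The released calcium drives contraction and is then returned to the store by the calcium pump or expelled by the sodium-calcium exchanger, while connexins pass the impulse to the next cell.

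Values are intensities on the log2 scale as derived from the deposited linear values, so a difference of 1.00 is a 2-fold change. Array medians lay between 4.94 and 5.19, and 95% of the 1153 negative control probes lay below 8.44, which served as the background bound. The mean intensity of 24 of the 37 genes was above that bound. The other 13 (Kcnj12, Kcnd2, Kcnd3, Kcna5, Kcne1, Kcnh2, Cacna1d, Cacna1g, Cacna1h, Hcn4, Trpm4, Sln and Gja5) lay within the range of the negative controls, and how far their values rest on the transcript itself is not known. The tissue was described by markers of cell types, and its chamber of origin was not tested. The summed level of the 6 measured ventricular cardiomyocyte markers that are not among the 37 genes lay between 20.90 and 21.24 in the 24 hearts. At day 3 it was 20.90 to 21.16 in control and 21.19 to 21.23 in rotenone rats. At day 14 it was 21.02 to 21.16 against 21.19 to 21.24, without overlap on either day. The sum adds linear intensities, so the brightest markers weigh most. Myh7 was called, higher at day 3 by 0.89 (adjusted p = 0.0131), and differed by 0.57 at day 14 (adjusted p = 0.09). Myl2, Tnnt2, Tnni3, Actc1 and Myl3 were not called and differed by -0.09 to 0.07 on the 3 days. Of the atrial markers, Myl7, Myl4 and Bmp10 were below the bound in each heart, while Nppa (13.82 to 17.15) and Dkk3 (9.58 to 10.85) were above it in each, and Sln, itself among the 37 genes, lay on both sides of it. Of other cell types, the fibroblast markers Lum, Col1a1 and Col1a2 (3 of 6) were lower at days 3 and 14, the 4 measured erythroid markers were lower at day 14, and 0 of 5 endothelial markers were called on any day. The part of these cell types in the values below was not tested. In whole tissue, fewer cells of a type and less RNA per cell cannot be told apart.

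A gene was called when limma's p-value, adjusted over 68842 transcript clusters, was below 0.05. At day 1, 2 of the 37 genes were called (5.41%), against 0.49% of transcript clusters, 1.11% of the 22093 genes and 3.42% of the 5114 genes above the background bound. Both were lower after rotenone, and 0.291% of transcript clusters were called lower. At day 3, 3 genes were called (8.11%, against 0.84%, 2.03% and 4.71%), 2 of them higher (0.291% of transcript clusters) and 1 lower (0.549%). At day 14, 8 genes were called (21.6%, against 2.89%, 5.82% and 15.2%), 4 higher and 4 lower (1.4% and 1.49%). For the mean of the 3 same-day differences, which compares 12 rats with 12, the count was 16 (43.2%, against 5.59%, 11.9% and 27.7%), 5 higher and 11 lower (2.52% and 3.07%). Of the 24 genes above the bound, 8.33%, 8.33% and 25.0% were called at days 1, 3 and 14, and 45.8% for the mean. The split in direction depended on the scaling: with array medians set equal, day 14 had 1 higher and 4 lower, and with quantile normalization, day 1 had 1 higher (Kcnk3) and 0 lower. The median difference of the 37 genes was -0.13, 0.04 and -0.11 at days 1, 3 and 14, beside -0.05, -0.00141 and -0.0341 over the genes above the bound. With quantile normalization the day 1 medians were -0.0503 and 0.0422. In all, 10 genes were called on at least 1 day, 7 for the mean alone and 20 nowhere, and 0 were called on all 3 days.

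**Figure D1:**
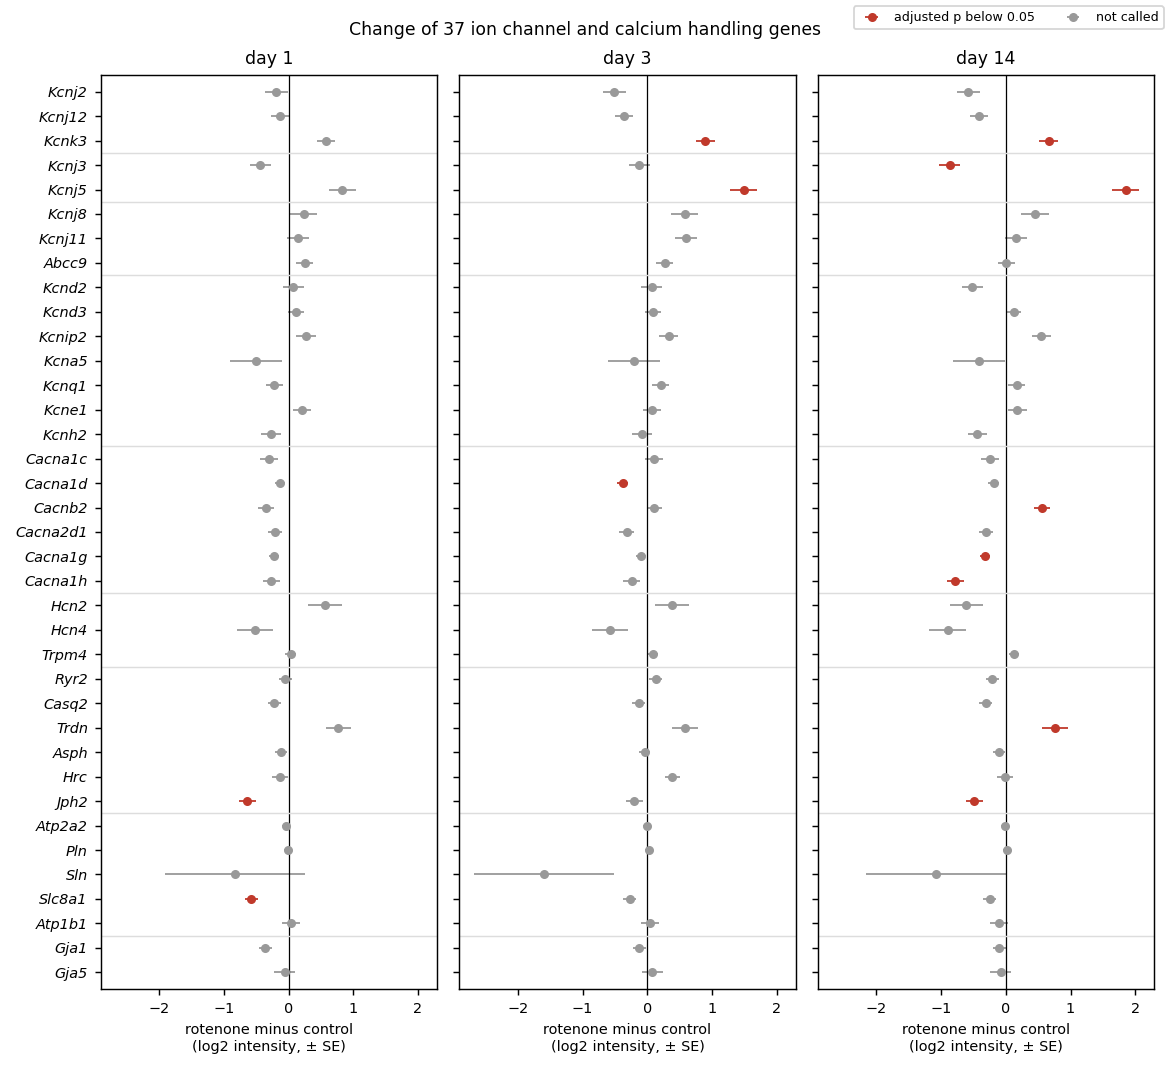
Difference in log2 intensity between rotenone and same-day control rats (x axis, point ± SE from limma, n = 4 rats a group) for the 37 genes (y axis, ordered by current or transport step) at days 1, 3 and 14, with called genes in red. Kcnj5 stood farthest to the right at days 3 and 14 (1.49 and 1.85). The surface calcium channel genes at day 1 were all to the left of 0, with 0 of them called.

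The acetylcholine-gated potassium channel slows the heart under vagal tone, and its pore is built from the products of Kcnj3 and Kcnj5. These partners moved in opposite directions. Kcnj5 rose by 1.49 ± 0.21 at day 3 (adjusted p = 0.000798) and by 1.85 ± 0.21 at day 14 (a fold of 3.6, adjusted p = 4.47e-05), while Kcnj3 fell by 0.87 ± 0.16 at day 14 (adjusted p = 0.00482). Kcnj5 at day 1 read 8.02, 7.77, 8.00 and 8.04 in control rats and 8.64, 8.72, 8.80 and 8.97 in rotenone rats. Kcnj5 at day 3 read 8.11, 8.41, 7.78 and 7.91 in control and 9.14, 9.66, 9.82 and 9.56 in rotenone rats. Kcnj5 at day 14 read 8.29, 8.31, 8.30 and 8.57 against 9.54, 10.12, 10.99 and 10.21. The groups did not overlap on any day, rotenone rat 3 stood highest at day 14, and the day 1 difference of 0.83 ± 0.21 had an adjusted p of 0.0937. For the mean of the 3 days Kcnj5 rose by 1.39 ± 0.12 (adjusted p = 3.83e-07). The 3 differences were ordered by day, but the test of a difference between days gave an adjusted p of 0.483. Kcnj5 at days 3 and 14 and for the mean was called under each of the alternatives tried and with each array left out.

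Kcnj3 at day 1 read 11.68, 11.32, 12.01 and 11.75 in control rats and 11.18, 11.51, 10.83 and 11.48 in rotenone rats. Kcnj3 at day 3 read 11.48, 11.66, 11.72 and 11.53 against 11.61, 11.28, 11.64 and 11.37. Kcnj3 at day 14 read 11.77, 12.22, 11.84 and 11.98 against 11.30, 11.29, 10.85 and 10.89. The groups overlapped at days 1 and 3 and were apart at day 14, where the 4 rotenone rats lay below the lowest control rat. The differences at days 1 and 3 were -0.44 ± 0.16 and -0.12 ± 0.16 (adjusted p = 0.407 and 0.901), and the mean of the days fell by 0.48 ± 0.09 (adjusted p = 0.0028). Both genes are known for high expression in the atrium. The summed level of the 5 atrial markers outside the 37 genes ranged from 13.91 to 15.40 in control and from 14.35 to 17.17 in rotenone rats at day 14. This sum of linear intensities mostly reflects Nppa (mean 15.58), since Dkk3 had a mean of 10.07 and the others were lower. Nppa differed by 1.59 at day 14 and was not called (adjusted p = 0.13). Myl7, Myl4 and Bmp10 differed by 0.10, 0.07 and 0.06. Dkk3 was the 1 atrial marker called, higher at day 14 by 0.73 (adjusted p = 0.00807), and 3 of the 5 were below the bound. The part of these markers in the Kcnj3 and Kcnj5 values was not tested.

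The 250 bases before the RefSeq start site (assembly GRCr8) are shown for Kcnj5 and Trdn, which were higher without overlap on all 3 days, and for Jph2, which was lower at days 1 and 14, so that the regulatory sequence of genes that moved up and down can be set side by side. They are written 5′ to 3′ on the gene's own strand. The RefSeq table held 28 promoter windows for 25 of the 37 genes, and Kcnk3, the third gene without overlap on all 3 days, was among the 12 with no entry. Capitals would mark a match to a motif and none of these 3 windows held one.
Kcnj5 (chr8:39011097-39011346, minus strand): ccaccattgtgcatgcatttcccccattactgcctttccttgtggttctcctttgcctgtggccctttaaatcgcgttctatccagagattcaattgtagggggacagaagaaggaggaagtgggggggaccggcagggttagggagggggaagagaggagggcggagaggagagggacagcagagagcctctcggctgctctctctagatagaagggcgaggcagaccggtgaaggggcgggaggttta
Trdn (chr1:26229600-26229849, minus strand): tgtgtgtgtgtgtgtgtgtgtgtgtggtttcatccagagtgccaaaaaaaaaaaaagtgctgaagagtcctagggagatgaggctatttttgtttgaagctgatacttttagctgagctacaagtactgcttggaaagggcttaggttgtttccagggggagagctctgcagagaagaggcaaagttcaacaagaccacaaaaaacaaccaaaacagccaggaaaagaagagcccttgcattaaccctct
Jph2 (chr3:172477922-172478171, minus strand): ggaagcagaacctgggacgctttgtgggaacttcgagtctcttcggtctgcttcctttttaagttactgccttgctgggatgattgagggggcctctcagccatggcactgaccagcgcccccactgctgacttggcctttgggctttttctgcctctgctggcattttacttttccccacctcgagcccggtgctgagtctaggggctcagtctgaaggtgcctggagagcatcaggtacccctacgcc
The motifs searched on both strands were the E-box CACGTG, the D-box TTATGTAA and the FoxO motif GTAAACA, which occurred in 5.59%, 0.828% and 3.21% of 33469 RefSeq promoters of this length, the GATA motif AGATAA (10.3%), and by name the ROR element (0.161%) and the MEF2 motif (0.523%). Among the 28 windows of the 25 genes, AGATAA occurred in 3 (10.7%; of Cacna2d1, Kcne1 and Gja1) and the other motifs in 0, which says only that these letters are not in these windows. Median GC content was 63.6% over these 28 windows and 51.2% in all promoters.

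Of the channels that hold the resting potential, Kcnk3, a background potassium channel sensitive to acid, rose. The inward rectifier genes Kcnj2 and Kcnj12 were lower for the mean of the days. Kcnk3 at day 1 read 10.06, 10.06, 10.29 and 10.10 in control rats and 10.93, 10.54, 10.62 and 10.74 in rotenone rats. Kcnk3 at day 3 read 9.85, 10.37, 10.15 and 10.18 against 11.07, 11.47, 10.73 and 10.87. Kcnk3 at day 14 read 10.46, 10.34, 10.27 and 10.36 against 10.73, 11.08, 11.06 and 11.22. On each day the lowest rotenone rat was above the highest control rat. Kcnk3 rose by 0.90 ± 0.14 at day 3 and 0.66 ± 0.14 at day 14 (adjusted p = 0.00224 and 0.0134), and differed by 0.58 ± 0.14 at day 1 (adjusted p = 0.0845). The day 14 call was lost with rotenone rat 4 left out (adjusted p = 0.0612) and with array medians set equal. For the mean of the days Kcnk3 rose by 0.71 ± 0.08 (adjusted p = 1.14e-05).

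Kcnj2 encodes the main pore subunit of the ventricular inward rectifier and Kcnj12 another. Kcnj2 at day 1 read 9.83, 10.002, 9.98 and 9.97 in control rats and 9.51, 9.47, 9.99 and 10.07 in rotenone rats. Kcnj2 at day 3 read 9.85, 10.36, 9.62 and 10.26 against 9.27, 9.40, 9.70 and 9.68. Kcnj2 at day 14 read 10.17, 10.20, 10.38 and 9.98 against 10.09, 9.56, 9.46 and 9.31. The groups overlapped on each day, at day 14 through rotenone rat 1 alone. The differences were -0.19 ± 0.18, -0.51 ± 0.18 and -0.58 ± 0.18, with adjusted p-values of 0.857, 0.261 and 0.0956, and the mean fell by 0.42 ± 0.10 (adjusted p = 0.016). Kcnj12 at day 1 read 6.46, 5.87, 6.07 and 5.96 against 5.97, 6.07, 5.68 and 6.11. Kcnj12 at day 3 read 6.26, 6.16, 6.65 and 6.38 against 6.31, 6.06, 5.78 and 5.84. Kcnj12 at day 14 read 6.42, 6.28, 6.14 and 6.36 against 5.72, 5.81, 5.99 and 6.00. Its groups were apart at day 14 and overlapped before. The mean of the days for Kcnj12 fell by 0.30 ± 0.08 (adjusted p = 0.0329), a call that was lost in 9 of the 24 fits with 1 array left out (adjusted p up to 0.0644), and the gene lay below the background bound.

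The ATP-sensitive potassium channel opens when ATP is low, and consists of a pore from Kcnj8 or Kcnj11 and the sulfonylurea receptor from Abcc9. The 9 same-day differences of these 3 genes were all above 0, from 0.01 to 0.60, and 0 of them were called. Kcnj8 was called for the mean of the days, higher by 0.42 ± 0.12 (adjusted p = 0.0403). Kcnj8 at day 1 read 8.66, 8.86, 8.44 and 8.80 in control rats and 9.26, 9.20, 8.76 and 8.46 in rotenone rats. Kcnj8 at day 3 read 8.23, 8.55, 8.22 and 8.51 against 8.41, 9.06, 9.12 and 9.23. Kcnj8 at day 14 read 8.31, 8.66, 8.23 and 8.44 against 8.33, 9.22, 8.74 and 9.16. The groups overlapped on each day, through rotenone rat 1 alone at days 3 and 14, and the call for the mean was lost in 15 of the 24 fits with 1 array left out (adjusted p up to 0.0774) and with array medians set equal (adjusted p = 0.116). Kcnj11 differed most at day 3, by 0.60 ± 0.17 (adjusted p = 0.112). Abcc9 differed by 0.25 ± 0.13, 0.27 ± 0.13 and 0.01 ± 0.13, and its groups did not overlap at day 3. Kcnj8 and Abcc9 are also known from pericytes and vascular smooth muscle. Of 8 pericyte and smooth muscle markers 0 were called on any day, and their summed level ranged from 16.19 to 17.07 in control and from 15.82 to 16.94 in rotenone rats. That sum mostly reflects Rgs5 (mean 16.45), and 4 of the 8 markers lay below the bound.

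Among the 7 genes of the voltage-gated potassium currents, 0 were called on a single day. The accessory subunit Kcnip2, which brings the transient outward channels to the membrane, was higher for the mean of the days, by 0.38 ± 0.09 (adjusted p = 0.00944). Kcnip2 at day 1 read 17.48, 17.65, 17.69 and 17.51 in control rats and 17.88, 17.85, 17.86 and 17.81 in rotenone rats. Kcnip2 at day 3 read 17.81, 17.78, 17.42 and 17.50 against 17.85, 18.49, 17.60 and 17.89. Kcnip2 at day 14 read 17.38, 17.94, 17.69 and 17.80 against 18.04, 18.30, 18.26 and 18.43. The groups were apart at days 1 and 14 and overlapped at day 3. The day 14 difference of 0.55 ± 0.15 did not pass the threshold (adjusted p = 0.0512), and the 4 transcript clusters of Kcnip2 gave day 14 differences from 0.53 to 0.55. The cluster used here and those at its level (means 17.82 to 17.83) are named as unmapped. Whether they are separate measures was not tested. The mapped cluster had a mean of 13.73 and a day 14 difference of 0.53. With quantile normalization the call for the mean was lost.

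Kcnd2 and Kcnd3 encode pores of the transient outward current, and neither was called. Kcnd2 at day 14 read 8.19, 8.33, 8.14 and 8.60 in control rats and 8.28, 7.65, 7.64 and 7.60 in rotenone rats. Rotenone rats 2, 3 and 4 lay below the control rats and rotenone rat 1 lay among them. The Kcnd2 difference at day 14 was -0.52 ± 0.16 (adjusted p = 0.084), after 0.07 ± 0.16 and 0.07 ± 0.16 at days 1 and 3. Kcnd3 differed by 0.09 to 0.12 on the 3 days. Of the delayed rectifier genes, Kcnh2, the pore of the rapid component, differed by -0.27 ± 0.15, -0.08 ± 0.15 and -0.44 ± 0.15 (adjusted p = 0.121 at day 14). Kcnq1, the pore of the slow component, differed by -0.22 ± 0.13, 0.21 ± 0.13 and 0.17 ± 0.13, and its partner Kcne1 by 0.08 to 0.20. Kcna5, the pore of the ultrarapid current, differed by -0.50 to -0.20 with an SE of 0.40, and ranged from 6.27 to 8.55 over the 24 hearts.

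The genes for calcium channels of the surface membrane had more differences below 0 than above it. All 6 differences were below 0 at day 1 (-0.35 to -0.13), 4 of 6 at day 3 and 5 of 6 at day 14, where Cacna1g and Cacna1h fell and Cacnb2 rose. At day 1, 0 of the 6 were called. Over the genes above the bound, 39.3%, 49.7% and 45.1% were higher at days 1, 3 and 14. Their day 1 median was -0.05, and 0.0422 with quantile normalization. Cacna1c, the pore of the main ventricular L-type channel, was not called, with differences of -0.31 ± 0.14, 0.10 ± 0.14 and -0.24 ± 0.14 (adjusted p = 0.55, 0.905 and 0.467). The 95% interval at day 14 ran from -0.52 to 0.05.

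Cacnb2, the beta subunit that carries the L-type pore to the membrane, had differences of opposite sign at days 1 and 14. Cacnb2 at day 1 read 10.93, 11.04, 10.74 and 11.01 in control rats and 10.46, 10.51, 10.67 and 10.70 in rotenone rats. Cacnb2 at day 3 read 11.24, 11.23, 10.87 and 10.88 against 11.28, 11.32, 11.01 and 11.05. Cacnb2 at day 14 read 11.31, 10.98, 10.88 and 11.08 against 11.55, 11.79, 11.47 and 11.67. The rotenone rats lay wholly below the control rats at day 1, overlapped with them at day 3 and lay wholly above them at day 14. The differences were -0.35 ± 0.12 (adjusted p = 0.36), 0.11 ± 0.12 (adjusted p = 0.863) and 0.56 ± 0.12 (adjusted p = 0.013). The call at day 14 was lost without control rat 3 or rotenone rat 2 of that day (adjusted p up to 0.0555) and with array medians set equal. The mean of the days differed by 0.11 ± 0.07 (adjusted p = 0.483), and the test of a difference between days gave an adjusted p of 0.114.

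**Figure D2:**
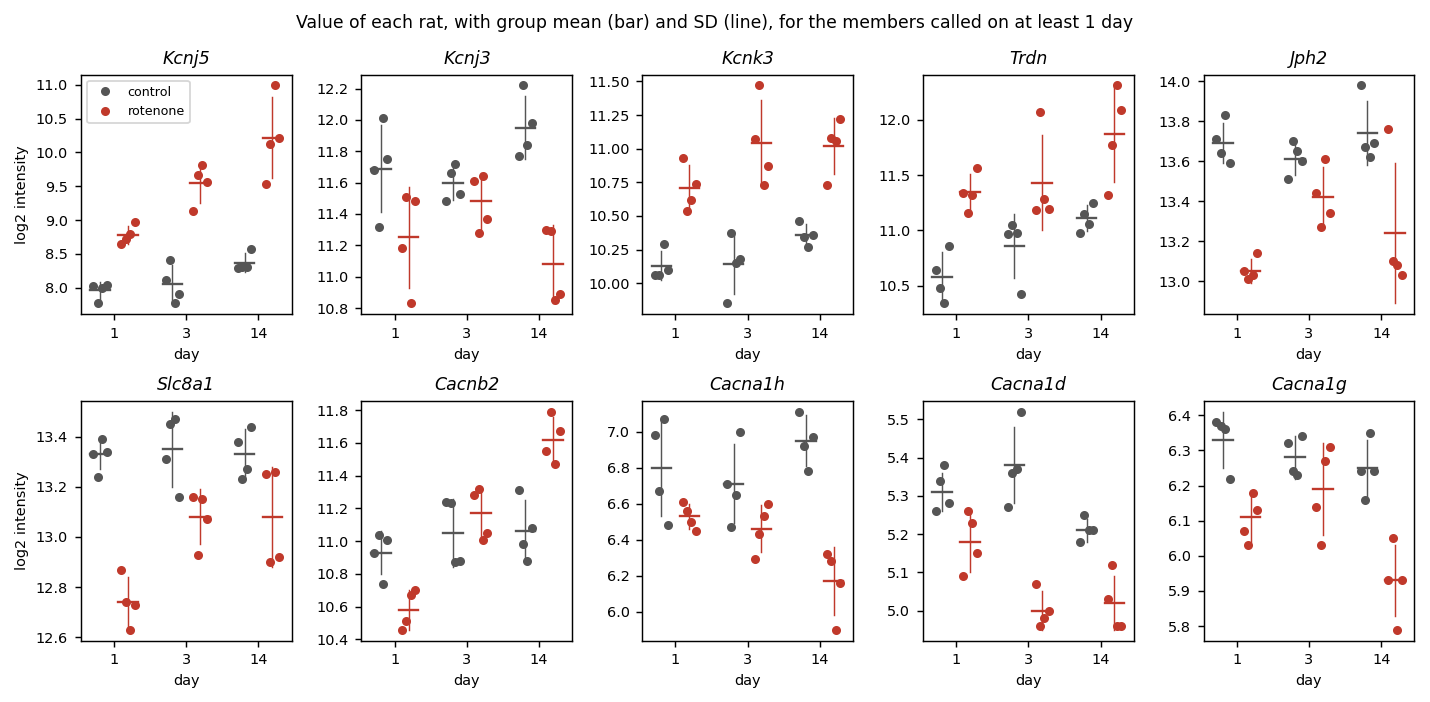
Log2 intensity (y axis) of each of the 24 rats by day (x axis) for the 10 genes called on at least 1 day, with control rats in grey, rotenone rats in red, a bar at the group mean and a line for ± SD (n = 4 rats a group). Kcnj5, Kcnk3 and Trdn show no overlap on any day, and Cacnb2 goes from below the control rats at day 1 to above them at day 14.

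Cacna1g and Cacna1h encode the T-type calcium channels, which open at more negative potentials and in the adult heart belong mainly to pacemaker tissue. Cacna1h at day 1 read 6.98, 6.67, 7.07 and 6.48 in control rats and 6.61, 6.56, 6.50 and 6.45 in rotenone rats. Cacna1h at day 3 read 6.71, 6.47, 6.65 and 7.00 against 6.29, 6.43, 6.53 and 6.60. Cacna1h at day 14 read 7.11, 6.92, 6.78 and 6.97 against 6.32, 6.28, 5.90 and 6.16. The groups overlapped at days 1 and 3 and were apart at day 14. Cacna1h fell by 0.78 ± 0.13 at day 14 (adjusted p = 0.00224), after -0.27 ± 0.13 and -0.24 ± 0.13, and by 0.43 ± 0.08 for the mean (adjusted p = 0.00111). Cacna1g at day 1 read 6.38, 6.37, 6.36 and 6.22 against 6.07, 6.03, 6.18 and 6.13. Cacna1g at day 3 read 6.32, 6.24, 6.23 and 6.34 against 6.14, 6.03, 6.27 and 6.31. Cacna1g at day 14 read 6.24, 6.16, 6.35 and 6.24 against 5.93, 6.05, 5.79 and 5.93. Its groups were apart at days 1 and 14. Cacna1g fell by 0.32 ± 0.08 at day 14 (adjusted p = 0.0405, not kept in 6 of 8 fits with 1 array left out, adjusted p up to 0.146) and by 0.22 ± 0.05 for the mean (adjusted p = 0.0086). Both genes lay below the background bound.

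Cacna1d, an L-type pore known mainly from the sinus node and atria, was also below the bound. Cacna1d at day 1 read 5.26, 5.34, 5.38 and 5.28 in control rats and 5.09, 5.26, 5.23 and 5.15 in rotenone rats. Cacna1d at day 3 read 5.27, 5.36, 5.37 and 5.52 against 5.07, 4.96, 4.98 and 5.00. Cacna1d at day 14 read 5.18, 5.25, 5.21 and 5.21 against 5.03, 5.12, 4.96 and 4.96. The groups touched at day 1 and were apart at days 3 and 14. It fell by 0.38 ± 0.08 at day 3 (adjusted p = 0.0159) and by 0.23 ± 0.04 for the mean (adjusted p = 0.00185), and the day 3 call was lost without control rat 4 or rotenone rat 2 of that day (adjusted p up to 0.0641). Cacna2d1, the alpha-2-delta subunit of the L-type channel, was called for the mean alone. Cacna2d1 at day 1 read 11.88, 11.93, 12.11 and 11.99 in control rats and 11.66, 11.91, 11.63 and 11.86 in rotenone rats. Cacna2d1 at day 3 read 12.13, 12.15, 12.14 and 11.82 against 11.96, 11.82, 11.50 and 11.71. Cacna2d1 at day 14 read 12.19, 12.09, 12.23 and 12.00 against 11.82, 11.97, 11.82 and 11.68. The groups were apart at day 14 only. Cacna2d1 fell by 0.28 ± 0.06 for the mean (adjusted p = 0.00923), with same-day differences of -0.21 ± 0.11, -0.32 ± 0.11 and -0.31 ± 0.11.

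Of the pacemaker channels, Hcn4 was lower for the mean of the days and Hcn2 had differences of both signs. Hcn4 at day 1 read 8.12, 6.54, 6.96 and 6.56 in control rats and 6.24, 6.61, 6.44 and 6.80 in rotenone rats. Hcn4 at day 3 read 7.64, 7.73, 7.18 and 7.01 against 7.25, 7.08, 6.68 and 6.23. Hcn4 at day 14 read 7.61, 8.26, 7.57 and 7.65 against 6.91, 6.60, 7.03 and 6.93. The groups were apart at day 14 only, and control rat 1 stood high at day 1. Hcn4 fell by 0.67 ± 0.16 for the mean (adjusted p = 0.0146), with a difference of -0.90 ± 0.28 at day 14 (adjusted p = 0.0919), and lay below the bound. Hcn2 differed by 0.56 ± 0.26, 0.38 ± 0.26 and -0.61 ± 0.26 on the 3 days, and the test of a difference between days had an unadjusted p of 0.01039 and an adjusted p of 0.527. Trpm4, a cation channel opened by calcium, differed by 0.03 to 0.13.

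In the calcium release unit, where the surface membrane faces the sarcoplasmic reticulum, Trdn rose while Jph2 and Casq2 fell. Trdn encodes triadin, which links the ryanodine receptor to the calcium buffer calsequestrin. Trdn at day 1 read 10.64, 10.48, 10.34 and 10.86 in control rats and 11.34, 11.16, 11.32 and 11.56 in rotenone rats. Trdn at day 3 read 10.97, 11.05, 10.98 and 10.42 against 11.18, 12.07, 11.28 and 11.19. Trdn at day 14 read 10.98, 11.15, 11.06 and 11.25 against 11.32, 11.77, 12.31 and 12.09. The groups were apart on each day, and at days 3 and 14 the lowest rotenone rat stood just above the highest control rat. Trdn rose by 0.70 ± 0.12 for the mean of the days (adjusted p = 0.000587) and by 0.76 ± 0.20 at day 14 (adjusted p = 0.0449). The day 14 call was lost in 7 of 8 fits with 1 array left out (adjusted p up to 0.165) and with array medians set equal, and was kept without rotenone rat 1. At days 1 and 3 Trdn differed by 0.77 ± 0.20 and 0.58 ± 0.20 (adjusted p = 0.122 and 0.261).

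Jph2 encodes junctophilin, which holds the reticulum against the surface membrane. Jph2 at day 1 read 13.71, 13.64, 13.83 and 13.59 in control rats and 13.05, 13.01, 13.03 and 13.14 in rotenone rats. Jph2 at day 3 read 13.51, 13.70, 13.65 and 13.60 against 13.44, 13.27, 13.61 and 13.34. Jph2 at day 14 read 13.98, 13.67, 13.62 and 13.69 against 13.76, 13.10, 13.08 and 13.03. The groups were apart at day 1, and at day 14 rotenone rat 1 lay among the control rats while the other 3 rotenone rats lay below them. Jph2 fell by 0.64 ± 0.13 at day 1 (adjusted p = 0.0246), by 0.49 ± 0.13 at day 14 (adjusted p = 0.0419) and by 0.44 ± 0.08 for the mean (adjusted p = 0.000661). Each of the single-day calls was lost in 7 of 8 fits with 1 array left out (adjusted p up to 0.0951 at day 1 and 0.158 at day 14), and the day 1 call was lost with quantile normalization. The call for the mean was kept in the 24 such fits.

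Casq2, the calsequestrin of heart muscle, stores calcium inside the reticulum. Casq2 at day 1 read 19.15, 19.09, 19.11 and 19.04 in control rats and 18.72, 18.93, 18.87 and 18.98 in rotenone rats. Casq2 at day 3 read 19.15, 19.12, 19.14 and 19.06 against 19.00, 18.81, 19.06 and 19.06. Casq2 at day 14 read 19.13, 19.09, 19.14 and 19.07 against 19.06, 18.73, 18.83 and 18.57. The rotenone rats were lower without overlap at days 1 and 14, and Casq2 fell by 0.22 ± 0.05 for the mean (adjusted p = 0.0169). The ryanodine receptor gene Ryr2 was not called, with differences of -0.05 ± 0.10, 0.13 ± 0.10 and -0.21 ± 0.10. The 95% interval at day 14 ran from -0.42 to -0.01 before adjustment. Hrc, a calcium-binding protein of the reticulum, differed by 0.39 ± 0.12 at day 3 without overlap (adjusted p = 0.17) and by -0.13 ± 0.12 and -0.01 ± 0.12 at days 1 and 14. Asph, the locus that also encodes junctin, differed by -0.12 to -0.04.

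Of the genes that clear calcium from the cytosol, the sodium-calcium exchanger gene Slc8a1 fell. Slc8a1 at day 1 read 13.33, 13.24, 13.39 and 13.34 in control rats and 12.87, 12.74, 12.63 and 12.73 in rotenone rats. Slc8a1 at day 3 read 13.31, 13.45, 13.47 and 13.16 against 13.16, 12.93, 13.15 and 13.07. Slc8a1 at day 14 read 13.38, 13.23, 13.27 and 13.44 against 13.25, 12.90, 13.26 and 12.92. The groups were far apart at day 1, touched at day 3 and overlapped at day 14. Slc8a1 fell by 0.58 ± 0.10 at day 1 (adjusted p = 0.00728) and by 0.37 ± 0.06 for the mean (adjusted p = 0.000409), with differences of -0.27 ± 0.10 and -0.25 ± 0.10 at days 3 and 14. The day 1 call was kept with each array left out (adjusted p up to 0.0346) and lost with quantile normalization.

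The calcium pump gene Atp2a2 and its inhibitor Pln were nearly flat. Atp2a2 ranged from 18.97 to 19.09 and Pln from 19.63 to 19.74 over the 24 hearts, and the same-day differences ran from -0.04 to 0.02. Their SD between rats of a group was 0.0237 and 0.0306, smaller than in all but 0.0978% and 0.176% of the genes above the bound, whose median SD was 0.152. The highest deposited intensity was 999973, close to these values. Of all genes on the array, 37 lay above 18 log2 units (not the 37 described here), with a median SD of 0.0682. At this level Myh7 (mean 19.03) differed by 0.89 at day 3 and Hba-a1 (18.54) by -4.35 at day 14. Actc1 (19.84) and Myl3 (19.03) differed by -0.09 to -0.01. Whether changes at this end of the scale are compressed was not tested. Sarcolipin, the other inhibitor of the pump and known from the atrium, had the opposite pattern. Sln at day 1 read 5.78, 9.65, 6.97 and 9.21 in control rats and 6.04, 9.45, 6.35 and 6.45 in rotenone rats. Sln at day 3 read 10.89, 8.39, 9.03 and 6.18 against 6.14, 9.04, 6.68 and 6.25. Sln at day 14 read 7.11, 8.72, 10.21 and 7.69 against 5.79, 9.23, 5.98 and 8.43. High and low rats occurred in every group, with a residual SD of 1.65, and the differences of -0.83 ± 1.08, -1.59 ± 1.08 and -1.08 ± 1.08 had 95% intervals that included 0. Atp1b1, the beta subunit of the sodium pump, differed by -0.11 to 0.04.

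**Figure D3:**
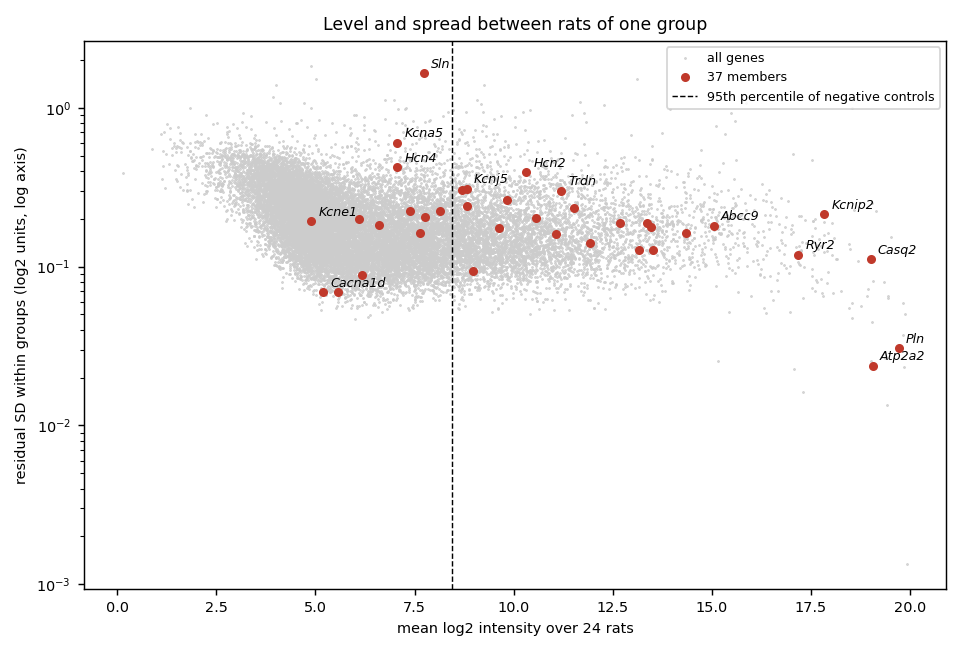
Mean log2 intensity over 24 rats (x axis) against the residual SD between rats of a group (y axis, log scale) for all genes in grey and the 37 genes in red, with a dashed line at 8.44, the 95th percentile of the negative controls. Atp2a2 and Pln lie at the bright end with SDs of 0.0237 and 0.0306, and Sln lies at the top with 1.65.

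Gap junction genes were not called. Gja1, the main connexin of the ventricle, read 13.52, 13.62, 13.60 and 13.60 in control rats and 13.29, 13.12, 13.20 and 13.28 in rotenone rats at day 1. The groups were apart on that day, with a difference of -0.36 ± 0.10 (adjusted p = 0.167), and the differences at days 3 and 14 were -0.12 ± 0.10 and -0.10 ± 0.10. Gja5, the connexin of the atrium and conduction system, differed by -0.08 to 0.08.

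Counted by overlap, the rotenone and control rats did not overlap in 12 of the 37 genes at day 1 (10.1% of all 22093 genes), 6 at day 3 (12.8%) and 13 at day 14 (11.4%). The 12 at day 1 were 4 higher and 8 lower (4.38% and 5.72% of genes), and the 6 at day 3 were 5 higher and 1 lower (6.22% and 6.62%). The 13 at day 14 were 5 higher and 8 lower (4.63% and 6.81%). The lower ones at day 1 included Atp2a2, whose difference was only -0.04. The share among genes above the bound, where 24 of the 37 genes lie, is not given here. Kcnk3, Kcnj5 and Trdn were higher without overlap on all 3 days.

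Rotenone rat 1 at day 14 stood nearer to the control rats than the others. It was the rotenone rat nearest to the control mean in 17 of the 37 genes (45.9%) and in 10 of the 17 genes called on a day or for the mean (58.8%), and it had the same place in 44.4% of all genes above the bound. Its summed erythroid marker level was 17.87, against 14.19, 15.76 and 12.38 in rats 2, 3 and 4, and 19.13 to 19.59 in the control rats of that day. Without this rat, 13 genes were called at day 14 in place of 8, with Kcnip2 added among those that were higher and Kcnj2, Kcnd2, Hcn2 and Casq2 among those that were lower. The share of the 37 genes called became 35.1%, and it rose over all features too, to 4.68% of transcript clusters, 8.9% of genes and 22.9% of genes above the bound. The part of the erythroid markers in these values was not tested.

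**Figure D4:**
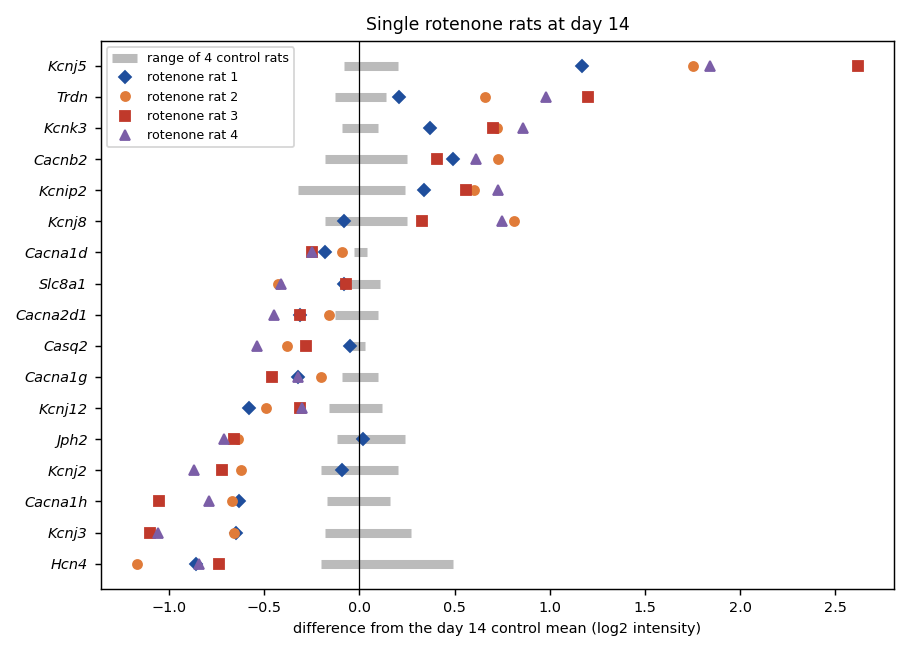
Difference from the day 14 control mean in log2 intensity (x axis) of each rotenone rat (symbols) for the 17 genes called on a day or for the mean of the days (y axis), with a grey bar for the range of the 4 control rats. Rotenone rat 1 (blue diamonds) lies inside or next to the grey bar for Jph2, Kcnj2, Kcnj8 and Casq2, where the other rats lie farther out.

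Whether the rotenone difference changed from day to day was tested directly. Of the 37 genes, 0 were called (0.0145% of transcript clusters and 0.0362% of genes were), and 7 had an unadjusted limma p under 0.05: Kcnj3, Kcnj5, Kcnd2, Cacnb2, Cacna1h, Hcn2 and Hrc. The share of all genes under that unadjusted threshold is not given here, so the count of 7 is not read as a result. The smallest adjusted p was that of Cacnb2, at 0.114. Control rats at day 14 were also compared with control rats at day 1, to see how far these genes move in untreated rats. Of the 37 genes 0 were called (0% of transcript clusters were), and 3 had an unadjusted limma p under 0.05, again without the share of all genes. The median difference was 0.10, beside 0.0198 over the genes above the bound.

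A wider list of 150 genes of channels and ion handling was described beside the 37, and 135 of them were measured. Of the 135, 0 were higher and 3 lower at day 1, 0 and 1 at day 3, 1 and 13 at day 14, and 1 and 17 for the mean of the days. The shares called were 2.22%, 0.741%, 10.4% and 13.3%, against 1.11%, 2.03%, 5.82% and 11.9% of all genes and 3.42%, 4.71%, 15.2% and 27.7% of the genes above the bound. The lower ones included the calmodulin genes Calm2 and Calm3, whose product gates many of these channels by calcium. Calm2 fell by 1.02 ± 0.20 at day 1 and dropped by 0.97 ± 0.20 at day 14 (adjusted p = 0.0143 and 0.00854), and Calm3 fell by 0.60 ± 0.13 and dropped by 0.54 ± 0.13 (adjusted p = 0.0354 and 0.0266). Casq1, the calsequestrin of skeletal muscle, fell by 1.72 ± 0.38 at day 3 and dropped by 2.12 ± 0.38 at day 14 (adjusted p = 0.0314 and 0.00344). Kcnn3, a calcium-activated potassium channel, fell by 0.94 ± 0.15 at day 1 and dropped by 0.68 ± 0.15 at day 14 (adjusted p = 0.00288 and 0.0127).

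At day 14 alone Scn4b, a beta subunit of the sodium channel, fell by 1.62 ± 0.32 (adjusted p = 0.00738). Letm1, an ion exchanger of the inner mitochondrial membrane, fell by 0.77 ± 0.14 (adjusted p = 0.00355). Speg, a kinase of the junctional membrane, and Fxyd1, the regulator of the sodium pump also called phospholemman, fell by 0.54 ± 0.12 and fell by 0.50 ± 0.12 (adjusted p = 0.0168 and 0.0181). The higher genes were Mtm1 at day 14 (0.37, adjusted p = 0.0392) and Kcna2 for the mean (0.57, adjusted p = 0.011), both chosen for naming after their values were seen. The mean intensities of Kcnn3 (8.17), Speg (8.34) and Kcna2 (7.13) lay below the background bound.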

How the data were processed

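Left ventricle apex RNA of 24 rats was hybridised to Rat Transcriptome Arrays. The deposited values were intensities on a linear scale, made by the authors with a GC count correction, signal space transformation and RMA (a robust average over probes). The software versions, build and annotation release were not given in the sources used here. Values were converted to log2 without further normalization. Of 70580 transcript clusters 1738 controls were left out, and 68842 were tested without a filter on intensity. Of these, 23446 had 1 symbol (22093 genes), 505 several and 44891 none.

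The main test was limma 3.58.1 (R 4.3.3) with 1 mean per group over the 24 arrays, with the Benjamini-Hochberg adjustment taken across 68842 transcript clusters. Each rotenone group was set against the control group of its own day, and controls are not shared between days. P-values rest on 1 spread between rats per transcript cluster, pooled over the 6 groups and drawn by limma toward that of all transcript clusters. The number of 4 rats a group limits the precision. The script was tested on data with known changes. At day 3 it recovered 37.3% of 1.5-fold, 86.6% of 2-fold and 93.9% of 4-fold changes, with 4 false calls among 149. A gene that was not called may therefore still have changed, above all by less than 2-fold. The members and lists were chosen with earlier results of these data known. Members called on a day, for the mean or for a difference between days have every rat's value given, and of the wider list the 8 with the smallest p among those called on a day are named. Of that list 15 genes were not analysed here. The promoter motifs for FoxO, GATA and MEF2 were added after the data were seen. Alternatives were other scalings, a filter on intensity, other rules for several transcript clusters of a gene, a 1.8-fold minimum, fits of the 8 arrays compared, an intensity trend with robust variances, array weights, rat number as a block, the methods' factorial test and each array left out.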

Additional observations from a re-analysis of the deposited data

Results flagged for a closer look

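A sample stood far from the other 3 of its group, by Dixon's test at the 95% level, in 16 of 222 groups of 4 rats. Chance alone flags about 1 in 20 such groups, which is 11 here. Among the potassium channel genes, Kcnj5 stood apart in control rat 2 at day 1 (7.77) and control rat 4 at day 14 (8.57), and Abcc9 in rotenone rat 2 at day 3 (15.47). Kcnd2 did so in rotenone rat 1 at day 14 (8.28), Kcnq1 in rotenone rat 1 at day 1 (9.19) and Kcnh2 in control rat 2 at day 3 (7.74). Among the calcium and pacemaker channel genes, the values were 11.82 for Cacna2d1 in control rat 4 at day 3, 6.22 for Cacna1g in control rat 4 at day 1 and 8.26 for Hcn4 in control rat 2 at day 14.

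Among the release and transport genes, Trdn stood low in control rat 4 (10.42) and high in rotenone rat 2 (12.07) at day 3. Asph stood apart in control rat 3 at day 1 (9.22) and control rat 4 at day 3 (8.87). Jph2 stood high in rotenone rat 1 at day 14 (13.76), Atp2a2 low in rotenone rat 3 at day 1 (18.97) and Sln high in rotenone rat 2 at day 1 (9.45). Of the 16 values, 3 came from control rat 4 at day 3 (Cacna2d1, Trdn and Asph).

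The Cacnb2 difference at day 14 minus that at day 1 was 0.90, since every rotenone rat was below every control rat at day 1 and above every control rat at day 14. The limma test of a difference between days gave an adjusted p of 0.114.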

How the results depend on the processing

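Of 29 single-gene results, 3 (Kcnj5 at day 3, day 14 and for the mean) were called in each setting tried, 9 were lost with at least 1 array left out, and 0 changed direction. These settings include the 1.8-fold minimum, which a result with a smaller difference cannot pass whatever its p-value. For the mean, Kcnj2, Kcnk3, Kcnj3, Cacna1d, Cacna2d1, Cacna1g, Cacna1h, Hcn4, Casq2, Trdn, Jph2 and Slc8a1 failed only this limma setting. Of the counts of called genes at day 1 (2), day 3 (3) and day 14 (8), a filter at the median intensity gave 4 at day 1 and 13 at day 14 and left out 1 of the 37 genes (Kcne1). Testing a single transcript cluster per gene gave 6, 5 and 14, and averaging the transcript clusters of a gene gave 6, 5 and 14. A 1.8-fold minimum gave 0 at day 1 and 2 at day 14, and 1 in place of 16 for the mean of the days. Fits of the 8 arrays compared, with fewer samples to estimate the spread, gave 0, 1 and 1. Quantile normalization gave 1 at day 1, and array medians set equal gave 5 at day 14. The methods' factorial test gave 2 for the mean. For a difference between days the count of 0 became 1 (Cacnb2) with the filter and with each of the rules of 1 value per gene. These settings test fewer transcript clusters. With 1 array left out the counts ran from 1 to 2, 2 to 4, 4 to 13 and, for the mean, 14 to 18. In these fits 0.25% to 0.41% of transcript clusters were called at day 1. The share was 0.437% to 0.726% at day 3 and 1.29% to 4.68% at day 14. For the mean and for the other settings, shares of all features called are not given. Those counts are therefore not read as a result about the 37 genes, and the cause of the other changes was not tested.

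Rats share only a number across groups: 1 of 12 pairs with the same number had r over 0.1 (range -0.173 to 0.122), and 1 rat matched its own number best. With rat number as a replicate block the counts were 2, 3, 7 and 17 for the 3 days and the mean, and 0 both for differences between days and in control rats. No scaling moved the median of the genes above the bound by more than 0.1, but with quantile normalization the median of the 37 genes was -0.0503 in place of -0.127 at day 1 and -0.304 in place of -0.113 at day 14, and that of the genes above the bound at day 1 was 0.0422 in place of -0.05. Genes near the top of the intensity scale and below the negative control bound limit what these arrays can show.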
